A study of Oryza sativa with 12 samples.

Results

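The DnaJ co-chaperone genes of rice were followed in young panicles of 4 lines. Members were chosen by annotation alone, as every transcript whose description in the deposited table contains DnaJ in any case. This gave 137 transcripts of 110 loci, out of 40722 transcripts of 34126 loci. DnaJ proteins, also called Hsp40 proteins, are the partners of the Hsp70 chaperones. Their J domain makes Hsp70 hydrolyse ATP and hold on to an unfolded protein, and many of them bind that protein first and hand it over. Nucleotide exchange factors, such as GrpE in organelles and BAG-domain proteins in the cytosol, then reset Hsp70. Some DnaJ proteins carry a cysteine-rich zinc-binding region, and in plants a number of proteins have this region without a J domain. Different members serve the cytosol, the endoplasmic reticulum, mitochondria and chloroplasts.

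The lines NIL-Prl5ST-1+Pbl6ST-1, NIL-Pbl6ST-1 and also NIL-Prl5ST-1 are near-isogenic lines, in which segments of the rice strain ST-1 were brought into the cultivar Koshihikari by repeated backcrossing and marker selection, and Koshihikari itself was the recurrent parent. The Prl5 segment lies on chromosome 5 and holds a gibberellin synthesis gene, and the Pbl6 segment lies on chromosome 6 and holds APO1, which encodes an F-box protein of panicle meristems. The study compared the lines to see how the segments, each of which lengthens the panicle, bear on gene expression. RNA of panicles at the 2-mm stage was sequenced in 3 libraries per line, 12 in all, from plants with no treatment, and each near-isogenic line is 1 selected line. The labels do not say whether the libraries of a line came from separate plants, so p-values measure the spread between these libraries. In bulk panicles, fewer cells of a type and less RNA per cell cannot be told apart.

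Total counts ranged from 16041196 to 31760529 per library, and 3 counts, used as the floor of detection, were worth 0.097 to 0.192 cpm (counts scaled to the total of the library). The 7 panicle loci checked were all found, with the homeobox transcript Os03t0727000-01 at 163 to 274 cpm and the MADS1 transcript Os03t0215400-01 at 153 to 189 cpm. Transcripts of a leaf list (the Rubisco small subunit and chlorophyll-binding proteins, 22 transcripts, of which 20 were detected in every library) summed to 83.5 to 108 cpm in NIL-Prl5ST-1+Pbl6ST-1, 73.7 to 74.8 cpm in NIL-Pbl6ST-1, 95.7 to 127 cpm in NIL-Prl5ST-1 and 70.4 to 121 cpm in Koshihikari. NIL-Prl5ST-1 replicate 2 and Koshihikari replicate 2 stood apart from the other libraries of their lines. On the first principal component, with 45% of the variance, NIL-Prl5ST-1 replicate 2 was at 16.9, against 46.7 and 50 in the other libraries of its line, and Koshihikari replicate 2 was at 21.9, against -8.77 and -3.63 in the others. NIL-Prl5ST-1 replicate 2 also had the lowest leaf sum of its line (95.7 cpm) and Koshihikari replicate 2 the highest (121 cpm). Counts that rest on these libraries are given with and without them.

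Of the 137 members, 125 transcripts of 99 loci passed the filter on low counts, and the other 12 had at most 13 counts in any library. Members lay on all 12 chromosomes, with 33 on chromosome 3, 21 on chromosome 5 and 5 on chromosome 6. Whether any of those on chromosomes 5 and 6 lie within the ST-1 segments was not tested. The summed level of the 137 members was 5420, 5610 and 5210 cpm in NIL-Prl5ST-1+Pbl6ST-1, 5520, 5410 and 5790 cpm in NIL-Pbl6ST-1, 6130, 5330 and 6230 cpm in NIL-Prl5ST-1 and 4890, 5480 and 5040 cpm in Koshihikari. Every sum lay between 4890 and 6230 cpm, and the ranges of NIL-Prl5ST-1 and Koshihikari overlapped through their replicates 2. The locus Os03t0648400 weighs heavily in these sums, since each of its transcripts enters them. Os03t0648400-01, Os03t0648400-02 and Os03t0648400-03 had means of 385, 877 and 845 cpm in NIL-Prl5ST-1 and 294, 677 and 653 cpm in Koshihikari. The sums therefore say little of most members. Several transcripts of 1 locus are counted from largely the same reads (24 loci had several member transcripts, 51 in all). In addition, the chromosome 5 loci Os05t0333500, Os05t0334000 and Os05t0334400 had identical counts in every library and cannot be told apart.

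Calls were made at an adjusted p below 0.05 over all 31643 transcripts tested. With all libraries and at this threshold, the members were called most often where lines with and without the Pbl6 segment were compared. In NIL-Pbl6ST-1 against Koshihikari, 5 members (4%) were higher and 10 (8%) lower, beside 3.07% of all transcripts higher and 5.42% lower. In NIL-Prl5ST-1+Pbl6ST-1 against NIL-Prl5ST-1, 18 members (14.4%) were higher and 20 (16%) lower, beside 13.2% and 12.1% of all transcripts. These shares are near those of all transcripts, and the median log2 fold changes of the members were 0.04 and -0.02, against 0 and 0 over all transcripts. The order of the comparisons depended on the libraries and the threshold. Without Koshihikari replicate 2, 24% of members were called in NIL-Pbl6ST-1 and 24% in NIL-Prl5ST-1 against Koshihikari (beside 23.2% and 20.8% of all transcripts). At an unadjusted p below 0.05 these shares were 24.8% and 24% (beside 25.3% and 25%). With all libraries and the adjusted p, 42 members of 32 loci were called in at least 1 of 6 comparisons. The remaining 83 had log2 fold changes of -0.88 to 0.61 in NIL-Pbl6ST-1 against Koshihikari and of -1.05 to 0.46 in NIL-Prl5ST-1+Pbl6ST-1 against NIL-Prl5ST-1. Within these limits 80 and 79 of the 83 were under 0.5 in size.

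**Figure D1:**
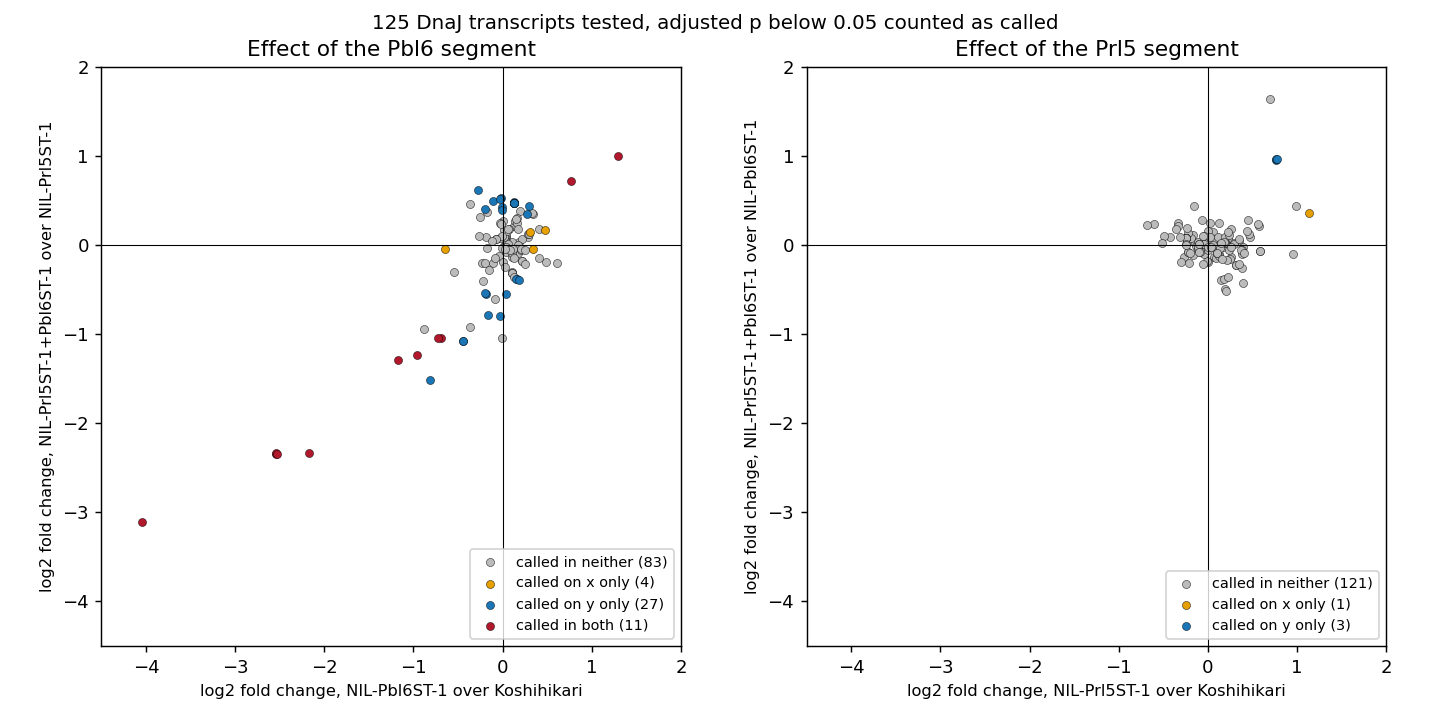
Log2 fold changes of the 125 DnaJ transcripts tested, each point 1 transcript. Left, NIL-Pbl6ST-1 over Koshihikari (x axis) and NIL-Prl5ST-1+Pbl6ST-1 over NIL-Prl5ST-1 (y axis), with 11 transcripts called on both axes (9 lower, 2 higher). Right, NIL-Prl5ST-1 over Koshihikari (x axis) and NIL-Prl5ST-1+Pbl6ST-1 over NIL-Pbl6ST-1 (y axis), with none called on both.

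These comparisons of the Pbl6 segment share no library, so the members' values in each can be set side by side. Of the 125 members, 72 (57.6%) had the same sign in both, close to the 55.6% of all transcripts. Called in both were 2 higher members and 9 lower ones, the 9 belonging to 5 loci. The values past 1 in size in both belonged to a handful of loci. As a description across transcripts, which are not independent replicates, Pearson's r was 0.843 and Spearman's rho 0.387 over the 125 members, against 0.349 and 0.207 over all transcripts.

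Os03t0300600, on chromosome 3 and described as similar to chaperone protein dnaJ, was the member with the most calls, in 4 of the 6 comparisons. Its first transcript, Os03t0300600-01, had 6.6, 8.27 and 6.86 cpm in NIL-Prl5ST-1+Pbl6ST-1, 4.46, 3.29 and 3.46 cpm in NIL-Pbl6ST-1, 41.0, 30.9 and 39.9 cpm in NIL-Prl5ST-1 and 19.5, 27.3 and 19.4 cpm in Koshihikari. No 2 lines overlapped, and the lines with the Pbl6 segment were the lowest. The transcript fell in NIL-Pbl6ST-1 to 0.171 times the level of Koshihikari (log2 fold change -2.54, SE 0.172, adjusted p = 9.3e-06) and in NIL-Prl5ST-1+Pbl6ST-1 to 0.196 times that of NIL-Prl5ST-1 (log2 -2.35, SE 0.135, adjusted p = 5.8e-08). In NIL-Prl5ST-1+Pbl6ST-1 it was also lower than in Koshihikari (log2 -1.60, SE 0.159, adjusted p = 0.00026) and higher than in NIL-Pbl6ST-1 (log2 0.95, SE 0.158, adjusted p = 0.0067). NIL-Prl5ST-1 was above Koshihikari by a log2 fold change of 0.76 (SE 0.157), with an adjusted p of 0.051. The other transcripts of the locus gave nearly equal counts and the same calls, and the interaction of the segments was not called (log2 0.19, SE 0.234, adjusted p = 0.62). The call against NIL-Pbl6ST-1 was kept in 11 of 12 alternatives. It was lost without NIL-Pbl6ST-1 replicate 2, where the log2 fold change was 0.85 and the adjusted p 0.051.

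**Figure D2:**
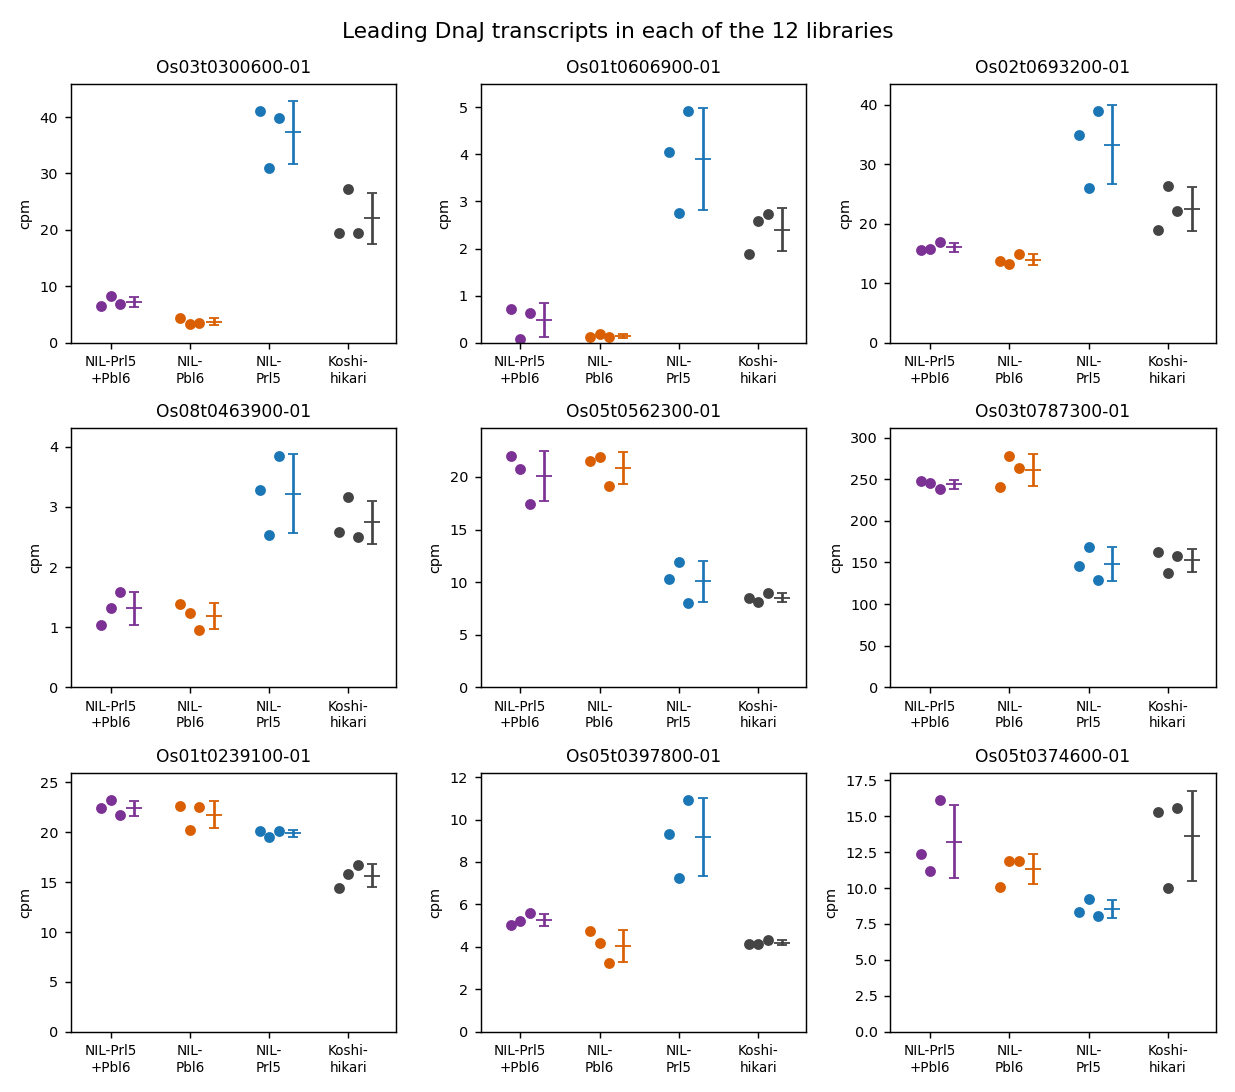
Level of 9 DnaJ transcripts in cpm (linear axes from 0), with NIL-Prl5 and NIL-Pbl6 short for NIL-Prl5ST-1 and NIL-Pbl6ST-1. Points are libraries in replicate order, and the bar beside them is the mean with 1 SD (n = 3 per line). The first 4 transcripts are lower and the next 2 higher in both lines with the Pbl6 segment, with no overlap between Os03t0300600-01 libraries of any 2 lines, and Os05t0397800-01 is highest in NIL-Prl5ST-1.

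Os01t0606900-01, a transcript with a DnaJ N-terminal domain, nearly disappeared with the Pbl6 segment. Its raw counts were 14, 2 and 13 in NIL-Prl5ST-1+Pbl6ST-1, 3, 4 and 2 in NIL-Pbl6ST-1, 74, 78 and 152 in NIL-Prl5ST-1 and 43, 54 and 69 in Koshihikari. The libraries with and without the segment did not overlap, and 3 of the 6 libraries with it were at or under the floor of 3 counts. Over the pooled counts, the level in NIL-Pbl6ST-1 was 0.0583 times that in Koshihikari (95% interval 0.0262 to 0.113) and the level in NIL-Prl5ST-1+Pbl6ST-1 0.112 times that in NIL-Prl5ST-1 (0.0738 to 0.164), intervals that cover counting error only. The fitted log2 fold changes were -4.05 (adjusted p = 4.6e-05) and -3.11 (adjusted p = 0.00014).

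The locus Os02t0693200, on chromosome 2 and also described as similar to chaperone protein dnaJ, fell in both comparisons. Os02t0693200-02 had 14.8, 15.1 and 16.1 cpm in NIL-Prl5ST-1+Pbl6ST-1 and 13.0, 12.4 and 13.7 cpm in NIL-Pbl6ST-1, against 33.7, 24.5 and 37.0 cpm in NIL-Prl5ST-1 and 18.3, 25.3 and 21.2 cpm in Koshihikari. The lines with the segment lay below the lines without it, with no overlap. Log2 fold changes were -0.73 (SE 0.126, adjusted p = 0.0042) in NIL-Pbl6ST-1 against Koshihikari and -1.05 (SE 0.135, adjusted p = 0.00011) in NIL-Prl5ST-1+Pbl6ST-1 against NIL-Prl5ST-1. The other transcripts of the locus were called in the same direction in both, and Os02t0693200-03 lost its call in the first comparison without Koshihikari replicate 3 (adjusted p = 0.055) or without any 1 of the NIL-Pbl6ST-1 libraries (0.055 to 0.086). Os06t0716100-01, a chromosome 6 member of the same description, had few reads. Its raw counts were 9, 10 and 4 in NIL-Prl5ST-1+Pbl6ST-1 and 3, 7 and 8 in NIL-Pbl6ST-1, against 34, 24 and 81 in NIL-Prl5ST-1 and 14, 44 and 31 in Koshihikari. The ratio of pooled levels was 0.217 (0.123 to 0.364) in NIL-Pbl6ST-1 over Koshihikari and 0.194 (0.119 to 0.304) in NIL-Prl5ST-1+Pbl6ST-1 over NIL-Prl5ST-1. Its adjusted p was 0.028 in the first, lost without Koshihikari replicate 3 (0.062), NIL-Pbl6ST-1 replicate 1 (0.14) or NIL-Pbl6ST-1 replicate 2 (0.09), and 0.0021 in the second.

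Members whose description names a cysteine-rich region were few, with 5 transcripts of 4 loci tested. Members described in other words may carry the region too, since protein sequences were not used. In NIL-Prl5ST-1+Pbl6ST-1 against NIL-Prl5ST-1 all 5 had a negative log2 fold change (median -1.08) and 4 of them were called, beside 25.3% of all transcripts, while in NIL-Pbl6ST-1 against Koshihikari 4 were negative (median -0.44) and 1 was called, beside 8.49% of all transcripts. The grouping by words of the description was chosen after values were seen, and no test was made on it. Os08t0463900-01 was the transcript called in both. It had 1.04, 1.32 and 1.58 cpm in NIL-Prl5ST-1+Pbl6ST-1 and 1.39, 1.23 and 0.96 cpm in NIL-Pbl6ST-1, against 3.28, 2.54 and 3.85 cpm in NIL-Prl5ST-1 and 2.58, 3.16 and 2.5 cpm in Koshihikari. No library with the segment reached the level of a library without it. The log2 fold changes were -1.17 (SE 0.222, adjusted p = 0.0071) and -1.29 (SE 0.241, adjusted p = 0.0019).

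Os05t0110100, a cysteine-rich locus on chromosome 5, was called in 1 of these comparisons. Os05t0110100-01 had 13.6, 12.3 and 10.6 cpm in NIL-Prl5ST-1+Pbl6ST-1 and 13.3, 11.8 and 13.3 cpm in NIL-Pbl6ST-1, against 31.9, 18.8 and 27.0 cpm in NIL-Prl5ST-1 and 13.9, 21.0 and 17.0 cpm in Koshihikari. The NIL-Prl5ST-1 libraries were spread most, with replicate 2 below the highest Koshihikari library. The log2 fold change was -1.08 (SE 0.162, adjusted p = 0.00038) in NIL-Prl5ST-1+Pbl6ST-1 against NIL-Prl5ST-1 and -0.44 (SE 0.144, adjusted p = 0.081) in NIL-Pbl6ST-1 against Koshihikari, and the interaction, which tests this difference, was -0.65 (SE 0.245, adjusted p = 0.099). The cysteine-rich Os04t0589200-01, named after its values were seen, was at -0.79 (adjusted p = 0.0097) and -0.16 (adjusted p = 0.68) in the same comparisons. In the 4 cysteine-rich transcripts called, and in Os03t0300600-01, Os02t0693200-02 and Os06t0716100-01 above, NIL-Prl5ST-1 replicate 2 was the lowest library of its line and Koshihikari replicate 2 the highest of its line, as in the leaf list. Of 19 leaf transcripts tested, 14 had a negative log2 fold change in NIL-Prl5ST-1+Pbl6ST-1 against NIL-Prl5ST-1 (6 called lower and 2 higher, median -0.22) and 15 in NIL-Pbl6ST-1 against Koshihikari (4 called lower and 0 higher, median -0.27). The part of the leaf transcripts in the members' values was not tested.

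Os05t0562300-01, a DnaJ-like protein on chromosome 5, and Os03t0787300-01, a DnaJ homolog on chromosome 3, rose in both comparisons. Os05t0562300-01 had 22.0, 20.8 and 17.4 cpm in NIL-Prl5ST-1+Pbl6ST-1 and 21.5, 21.9 and 19.1 cpm in NIL-Pbl6ST-1, against 10.3, 11.9 and 8.05 cpm in NIL-Prl5ST-1 and 8.47, 8.1 and 9.01 cpm in Koshihikari. It was about doubled with the segment, at 2.44 times the level of Koshihikari in NIL-Pbl6ST-1 (log2 1.29, SE 0.108, adjusted p = 3.4e-05) and at 2.00 times that of NIL-Prl5ST-1 in NIL-Prl5ST-1+Pbl6ST-1 (log2 1.0, SE 0.143, adjusted p = 0.00028). Os03t0787300-01 had 248, 245 and 238 cpm in NIL-Prl5ST-1+Pbl6ST-1 and 241, 278 and 264 cpm in NIL-Pbl6ST-1, against 146, 169 and 129 cpm in NIL-Prl5ST-1 and 162, 137 and 158 cpm in Koshihikari. Neither transcript overlapped between lines with and without the segment. The log2 fold changes of Os03t0787300-01 were 0.77 (SE 0.0983, adjusted p = 0.00062) and 0.72 (SE 0.108, adjusted p = 0.00041).

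Smaller rises were called in NIL-Pbl6ST-1 against Koshihikari for Os01t0239100-01 (DnaJ family, log2 0.48, SE 0.103, adjusted p = 0.015), Os06t0111700-01 (DnaJ domain, chromosome 6, log2 0.34, adjusted p = 0.042) and Os03t0392400-01 (DnaJ N-terminal domain, log2 0.31, adjusted p = 0.038). The other member transcript of the first locus, Os01t0239100-02, was at log2 -0.04 (adjusted p = 0.81). With both segments against Koshihikari Os01t0239100-02 was at log2 0.01 (adjusted p = 0.99). In NIL-Prl5ST-1+Pbl6ST-1 against NIL-Prl5ST-1 none of the 3 was called (log2 0.17, -0.05 and 0.14, adjusted p = 0.21, 0.78 and 0.29). Os01t0239100-01 had 22.4, 23.2 and 21.7 cpm in NIL-Prl5ST-1+Pbl6ST-1, 22.6, 20.2 and 22.5 cpm in NIL-Pbl6ST-1, 20.1, 19.5 and 20.1 cpm in NIL-Prl5ST-1 and 14.4, 15.8 and 16.7 cpm in Koshihikari. All of the near-isogenic lines lay above Koshihikari, and it was called in NIL-Prl5ST-1+Pbl6ST-1 against Koshihikari too (log2 0.52, SE 0.103, adjusted p = 0.024) but not in NIL-Prl5ST-1 (log2 0.35, SE 0.109, adjusted p = 0.097). That call was lost without Koshihikari replicate 1 (log2 0.46, adjusted p = 0.11) or without replicate 1 (0.52, 0.11) or replicate 2 (0.49, 0.14) of NIL-Prl5ST-1+Pbl6ST-1. Os06t0111700-01 had 31.4, 34.1 and 35.8 cpm in NIL-Pbl6ST-1 against 25, 27.4 and 27.3 cpm in Koshihikari, and Os03t0392400-01 had 88.6, 89.7 and 83.7 cpm against 72.7, 71.3 and 67.1 cpm. The libraries of these lines did not overlap for any of the 3 transcripts. Os06t0111700-01 and Os03t0392400-01 each lost their call without any 1 library of the comparison other than Koshihikari replicate 2 (adjusted p of up to 0.17 and 0.16), at log2 fold changes of 0.30 to 0.39 and 0.28 to 0.34, close to those with all libraries. Os01t0239100-01 lost its call in NIL-Pbl6ST-1 against Koshihikari without Koshihikari replicate 1 (adjusted p = 0.064), NIL-Pbl6ST-1 replicate 1 (0.089) or NIL-Pbl6ST-1 replicate 3 (0.069), at log2 fold changes of 0.42 to 0.45. The count of members called in that comparison was 15 in all (12%, beside 8.49% of all transcripts), 30 without Koshihikari replicate 2 (24%, beside 23.2%) and 9 without NIL-Pbl6ST-1 replicate 1 (7.2%, beside 3.37%), and the 30 held all of the 15.

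In NIL-Prl5ST-1+Pbl6ST-1 against NIL-Prl5ST-1 a further group of members rose by less than a doubling, many of them on chromosome 5. Of 20 members tested on that chromosome, 14 were called (11 higher, 3 lower), beside 26.5% of all its transcripts, but 6 of the 11 are the transcripts of the 3 loci with equal counts. Os05t0374600-01 and Os12t0548200-02, both with a DnaJ N-terminal domain, had log2 fold changes of 0.62 (SE 0.144, adjusted p = 0.0062) and 0.51 (SE 0.113, adjusted p = 0.0049). Os12t0548200-02 had 67.3, 64.7 and 81.4 cpm in NIL-Prl5ST-1+Pbl6ST-1, against 49.6, 55.7 and 44.4 cpm in NIL-Prl5ST-1, with 57.7, 66.4 and 64.2 cpm in NIL-Pbl6ST-1 and 66.3, 52.9 and 73.0 cpm in Koshihikari. NIL-Prl5ST-1 was the low line, and Koshihikari replicate 2 overlapped with it. Os11t0661200-01 (log2 0.53), Os05t0587300-01 (0.49), the 6 transcripts of Os05t0333500, Os05t0334000 and Os05t0334400 (0.47 each), Os05t0579900-02 (0.42) and Os05t0210600-01 (0.40) were called as well, and none of these was called in NIL-Pbl6ST-1 against Koshihikari, where their log2 fold changes were between -0.20 and 0.13. Their interaction terms had adjusted p-values of 0.065 to 0.15.

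**Figure D3:**
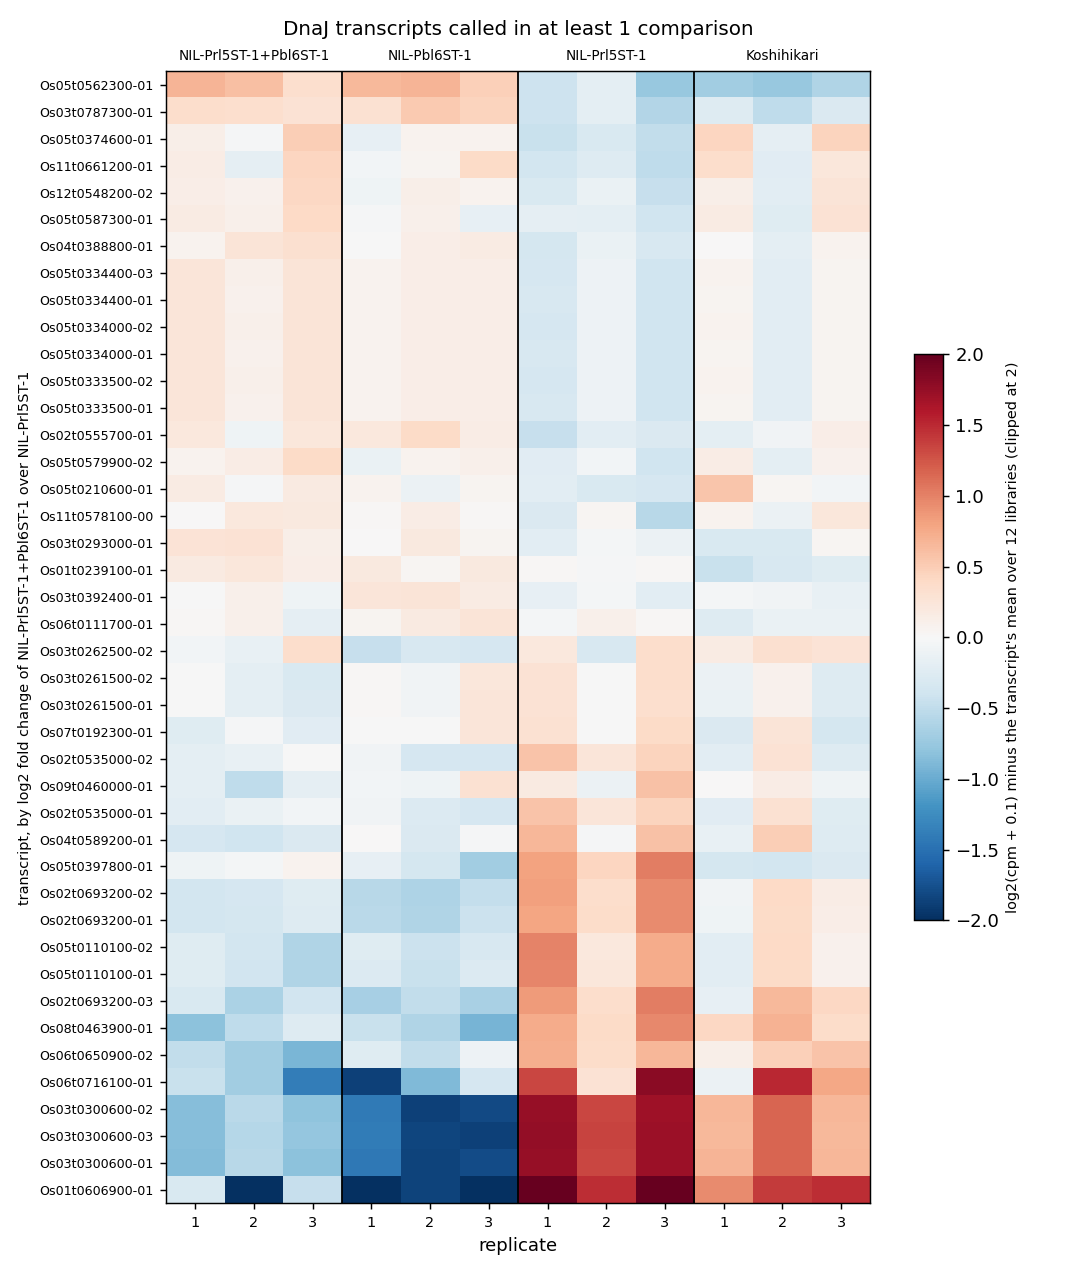
The 42 DnaJ transcripts called in at least 1 comparison, 1 row each, ordered by log2 fold change of NIL-Prl5ST-1+Pbl6ST-1 over NIL-Prl5ST-1, with the 12 libraries as columns in 4 lines. Colour is log2(cpm + 0.1) minus the transcript's mean over the libraries, clipped at 2 (red higher, blue lower). The bottom rows, such as Os03t0300600-01 and Os01t0606900-01, are blue in all 6 libraries with the Pbl6 segment, while in most rows from Os05t0374600-01 to Os11t0578100-00 replicates 1 and 3 of NIL-Prl5ST-1 are the bluest.

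Lower in that comparison were also Os05t0397800-01 (log2 -0.80, SE 0.16, adjusted p = 0.0029) and the chromosome 6 transcript Os06t0650900-02, which had 7, 8 and 5 counts in NIL-Prl5ST-1+Pbl6ST-1 against 18, 21 and 29 in NIL-Prl5ST-1 (ratio 0.346, 0.199 to 0.576, adjusted p = 0.0084). Outside the rule for names, 4 higher (log2 0.35 to 0.48) and 8 lower members (log2 -1.05 to -0.38) were called there. The count of 38 (30.4%, beside 25.3% of all transcripts) was 51 without NIL-Prl5ST-1 replicate 2 (40.8%, beside 35.3%), of which 37 were among the 38. Without any other single library it was 27 to 32 (21.6% to 25.6%, beside 12.3% to 18.8%). Os05t0210600-01 was the least stable of the named rises, with its call kept in 4 of 12 alternatives.

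With the Prl5 segment alone, in NIL-Prl5ST-1 against Koshihikari, 1 member (0.8%) was called higher and 0 lower by edgeR, beside 0.382% and 0.36% of all transcripts. At an unadjusted p below 0.05 there were 22 higher and 8 lower (24%, beside 25% of all transcripts), and DESeq2 called 8 higher and 1 lower (7.2%, beside 6.38%). With all 12 libraries in one fit 11.2% of the members were called, beside 11.5% of all transcripts. Os05t0397800-01, a DnaJ-domain transcript on chromosome 5, was the 1 called. It had 9.34, 7.24 and 10.9 cpm in NIL-Prl5ST-1 against 4.15, 4.12 and 4.33 cpm in Koshihikari, with 5.04, 5.21 and 5.58 cpm in NIL-Prl5ST-1+Pbl6ST-1 and 4.76, 4.16 and 3.26 cpm in NIL-Pbl6ST-1. Only NIL-Prl5ST-1 was high, at 2.19 times the level of Koshihikari (log2 1.13, SE 0.17, adjusted p = 0.013), and in NIL-Prl5ST-1+Pbl6ST-1 against NIL-Pbl6ST-1 the log2 fold change was 0.36 (SE 0.16, adjusted p = 0.29). The interaction of the segments for this transcript was -0.77 (SE 0.235, adjusted p = 0.06). The call was lost without Koshihikari replicate 1, NIL-Prl5ST-1 replicate 1 or NIL-Prl5ST-1 replicate 3 (adjusted p of 0.062, 0.067 and 0.066).

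This comparison depended on the libraries that stand apart. The count of 1 became 18 (14.4% of members, beside 11.3% of all transcripts) without NIL-Prl5ST-1 replicate 2 and 30 (24%, beside 20.8%) without Koshihikari replicate 2. Without both it was 58, with 36 higher and 22 lower (46.4%, beside 36.8%). The members and all transcripts gained calls together. Os03t0648400-02 (DnaJ homolog DNAJ-1, chosen after its values were seen) shows the pattern. It had 944, 718 and 967 cpm in NIL-Prl5ST-1 against 605, 788 and 639 cpm in Koshihikari, so that the replicates 2 crossed over and the log2 fold change of 0.38 (SE 0.149) had an adjusted p of 0.15.

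In the presence of the Pbl6 segment, 3 members (2.4%) were higher and 0 lower by edgeR in NIL-Prl5ST-1+Pbl6ST-1 against NIL-Pbl6ST-1, beside 0.382% and 0.395% of all transcripts. At an unadjusted p below 0.05 there were 11 higher and 7 lower (14.4%, beside 15.9% of all transcripts), and DESeq2 called 3 higher and 0 lower (2.4%, beside 1.81%). The 3 were the transcripts of Os03t0300600 described above, and without NIL-Pbl6ST-1 replicate 2 none of them was called. The comparisons of the Prl5 segment share no library, and 58 of the 125 members (46.4%, against 38.5% of all transcripts) had the same sign in both. Os03t0300600-01 was among these, with positive values of 0.76 and 0.95.

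With both segments against Koshihikari, 3 members (2.4%) were higher and 5 (4%, of 3 loci) lower, beside 0.863% and 1.3% of all transcripts. The higher ones were Os05t0562300-01 (log2 1.23, SE 0.123, adjusted p = 0.00026), Os03t0787300-01 (log2 0.67, SE 0.0977, adjusted p = 0.0034) and Os01t0239100-01. The lower ones were the 3 transcripts of Os03t0300600, Os01t0606900-01 (log2 -2.41, SE 0.455, adjusted p = 0.018) and Os08t0463900-01 (log2 -1.06, SE 0.234, adjusted p = 0.04). Each of these 8 was also called in NIL-Pbl6ST-1 against Koshihikari, and both comparisons use the same Koshihikari libraries. Os08t0463900-01 lost its call without any 1 Koshihikari library (adjusted p of 0.058 to 0.095), and without NIL-Prl5ST-1+Pbl6ST-1 replicate 1 (0.19) or replicate 2 (0.16).

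The interaction of the segments, the product term in a fit of all 12 libraries, asks whether the Prl5 segment had another effect with Pbl6 than without it. It was called for 1 member (0.8%, higher) and 0 lower by edgeR, beside 2.08% and 1.85% of all transcripts, with 19 and 17 at an unadjusted p below 0.05 (28.8%, beside 28.9%) and 4 and 4 by DESeq2 (6.4%, beside 11.5%). Os05t0374600-01, with a DnaJ N-terminal domain, had 12.4, 11.2 and 16.1 cpm in NIL-Prl5ST-1+Pbl6ST-1, 10.1, 11.9 and 11.9 cpm in NIL-Pbl6ST-1, 8.35, 9.22 and 8.05 cpm in NIL-Prl5ST-1 and 15.3, 10 and 15.6 cpm in Koshihikari. NIL-Prl5ST-1 was the lowest line, and Koshihikari replicate 2 was far below the other libraries of Koshihikari. The interaction was 0.90 (SE 0.232, adjusted p = 0.046), with NIL-Prl5ST-1 against Koshihikari at -0.68 (adjusted p = 0.068) and NIL-Prl5ST-1+Pbl6ST-1 against NIL-Pbl6ST-1 at 0.22 (adjusted p = 0.43). The members called at the interaction were 33 (26.4%) without Koshihikari replicate 2 and 28 (22.4%) without NIL-Prl5ST-1 replicate 2, beside 24% and 16.5% of all transcripts. Without any other single library edgeR called 0 or 1, beside 0.0221% to 4.46% of all transcripts.

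**Figure D4:**
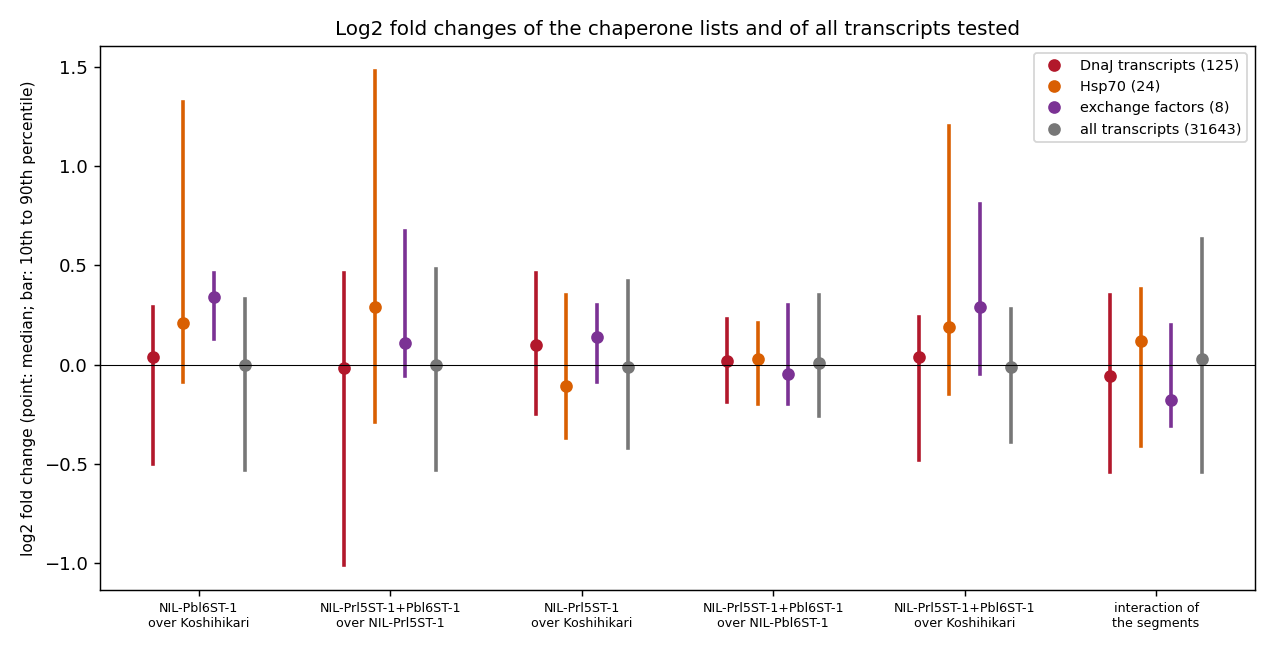
Median (point) and 10th to 90th percentile (bar) of log2 fold changes in 6 comparisons for the 125 DnaJ transcripts, 24 Hsp70 transcripts, 8 exchange factor transcripts and all 31643 transcripts tested. The DnaJ medians lie between -0.06 and 0.10, while Hsp70 medians are 0.21 and 0.29 in the comparisons that add the Pbl6 segment.

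The partners of the DnaJ proteins were set beside them. Of 24 Hsp70 transcripts tested, 8 were called in NIL-Pbl6ST-1 against Koshihikari, each of them higher (median of the list 0.21), beside 3.07% of all transcripts higher and 5.42% lower. In NIL-Prl5ST-1+Pbl6ST-1 against NIL-Prl5ST-1 11 (of 9 loci) were higher and 2 (of 1 locus) lower (median 0.29), beside 13.2% and 12.1% of all transcripts. The DnaJ medians in the same comparisons were 0.04 and -0.02, with 4% and 14.4% of members called higher and 8% and 16% lower. Summed over the 32 annotated Hsp70 transcripts, the level was 4920, 5270 and 4760 cpm in NIL-Prl5ST-1+Pbl6ST-1, 5580, 5500 and 5690 cpm in NIL-Pbl6ST-1, 5370, 4840 and 5740 cpm in NIL-Prl5ST-1 and 4300, 4830 and 4360 cpm in Koshihikari. The NIL-Pbl6ST-1 sums lay above those of Koshihikari with no overlap, and the sums of NIL-Prl5ST-1+Pbl6ST-1 and NIL-Prl5ST-1 overlapped. Most of each sum came from Os11t0703900-01, at 3610, 3370 and 3630 cpm in NIL-Pbl6ST-1 and 2770, 3310 and 2820 cpm in Koshihikari. That transcript was not called between these lines (log2 0.25, adjusted p = 0.17), so the sums say little of the Hsp70 transcripts called. Of 8 exchange factor transcripts, 1 was called in the first comparison and 2 in the second, each higher, with the GrpE homolog Os02t0612000-01 in both (log2 0.58, adjusted p = 0.013, and log2 0.40, adjusted p = 0.049). The difference between the DnaJ and Hsp70 lists was not tested.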

How the data were processed

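The table deposited by the authors holds raw counts for Rice Annotation Project transcripts in each library, beside a short description. The submitters' processing notes name bcl2fastq, Bowtie and the build IRGSP-1.0. The counting tool, the use of strand and the handling of reads with several matches are not given in the sources used here, so reads of paralogs and overlapping genes may be shared. Every sample column was used.

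Counts of each comparison's 6 libraries (all 12 for the interaction) were normalized by TMM and tested two-sided with the quasi-likelihood test of edgeR 4.0.16 in R 4.3.3 (prior count 0.125), after filterByExpr over 12 libraries (minimum count 10, total 15, smallest group 3). Benjamini-Hochberg adjustment was over the 31643 transcripts tested. Levels are cpm on TMM-scaled totals, not divided by transcript length, so they are not compared between genes. SE is derived from the fold change and its F value. The script was tested on simulated data. Total counts were 16041196 to 31760529 per library.

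Alternatives were DESeq2 1.42.0 and its size factors, other filters, 1 fit of all libraries, a replicate block, counts summed to loci, an unadjusted threshold and leaving out libraries. The replicate numbers were not taken to pair the samples. The members, lists and rules were chosen with earlier results of these data known. Named are, per comparison, up to 5 called members each way with the largest fold change and a mean of 50 counts in the higher line, members called alike in both comparisons of a segment (at most 10), and called members on chromosomes 5 and 6. The intended order by protein class, the naming of members by level per residue, the protein sequences and the promoter motifs were not used here, and descriptions were used in their place.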

Additional observations from a re-analysis of the deposited data

Results flagged for a closer look

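Os05t0374600-01, a transcript with a DnaJ N-terminal domain on chromosome 5, was the 1 member whose response to the Prl5 segment differed between the backgrounds with and without the Pbl6 segment, by the interaction in edgeR (log2 0.90, adjusted p = 0.046). It was 0.22 in NIL-Prl5ST-1+Pbl6ST-1 over NIL-Pbl6ST-1 and -0.68 in NIL-Prl5ST-1 over Koshihikari. Over 18 alternatives the interaction ranged between 0.73 and 1.14 with an adjusted p of up to 0.13, and it was called in 8 of them. Koshihikari replicate 2, at 10 cpm against 15.3 and 15.6 cpm in the other Koshihikari libraries, stands apart in the whole data as well, and without it the interaction was 1.08 (adjusted p = 0.002). The part of that library in the result was not tested further.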

How the results depend on the processing

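Of 52 calls of the members named, 36 were kept in every alternative that gave the transcript an adjusted p. Over these alternatives 561 of 624 values kept the call, 63 lost it and 0 changed direction. Counts summed to loci and the unadjusted threshold were not part of this tally. The 52 include several transcripts of the same locus and the loci with identical counts, so they are not separate results. Summed to loci, the members called were 9 in NIL-Pbl6ST-1 against Koshihikari (15 transcripts), 2 in NIL-Prl5ST-1 against Koshihikari (1), 1 in NIL-Prl5ST-1+Pbl6ST-1 against NIL-Pbl6ST-1 (3) and 5 in NIL-Prl5ST-1+Pbl6ST-1 against Koshihikari (8). Each locus was tested once on its summed counts, so calls could change as well as merge. Of the 100 member loci tested these were 9%, 2%, 1% and 5%, beside 7.81%, 0.959%, 0.534% and 2.21% of all loci. At an unadjusted p below 0.05 the members called were 31, 30, 18 and 22 in these comparisons and 36 at the interaction (1). As shares they were 24.8%, 24%, 14.4%, 17.6% and 28.8%, beside 25.3%, 25%, 15.9%, 13.8% and 28.9% of all transcripts. NIL-Prl5ST-1 against Koshihikari had 4 with DESeq2 size factors (3.2%, beside 0.803% of all transcripts) and 9 with DESeq2 (7.2%, beside 6.38%). It had 7 with no filter (5.11%, beside 4.21%) and 14 with all 12 libraries in one fit (11.2%, beside 11.5%). The interaction had 8 with DESeq2 (6.4%, beside 11.5%) and 7 with no filter (5.11%, beside 7.06%). The cause of these was not tested. Without both replicates 2 (Koshihikari and NIL-Prl5ST-1) the members called were 58 and 41 (46.4% and 32.8%, beside 36.8% and 32.1% of all transcripts).

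Leaving out 1 library at a time gave 9 to 30 in NIL-Pbl6ST-1 against Koshihikari, 27 to 51 in NIL-Prl5ST-1+Pbl6ST-1 against NIL-Prl5ST-1 (38), 0 to 30 in NIL-Prl5ST-1 against Koshihikari, 0 to 4 in NIL-Prl5ST-1+Pbl6ST-1 against NIL-Pbl6ST-1, 6 to 9 in NIL-Prl5ST-1+Pbl6ST-1 against Koshihikari and 0 to 33 at the interaction. In the same order, these were 7.2% to 24%, 21.6% to 40.8%, 0% to 24%, 0% to 3.2%, 4.8% to 7.2% and 0% to 26.4% of the members. The shares of all transcripts called moved as well, at 3.37% to 23.2%, 12.3% to 35.3%, 0.199% to 20.8%, 0.3% to 2.37%, 0.853% to 2.65% and 0.0221% to 24%.

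Same-numbered libraries correlated between -0.451 and 0.529 over 18 pairs of lines and numbers, with 6 above 0.1, and 5 of the 18 were best matched to their own number, so the numbers were not taken to pair the samples. With the replicate block edgeR called 0 members in NIL-Prl5ST-1 against Koshihikari and 0 at the interaction, beside 0.218% and 0.449% of all transcripts (with no block, 30 and 36 at an unadjusted p below 0.05 and 9 and 8 by DESeq2). In the other comparisons the block gave 13, 39, 3 and 11, against 15, 38, 3 and 8. The counts with the block were 10.4%, 31.2%, 2.4% and 8.8% of the members, beside 5.53%, 27.4%, 0.711% and 4.08% of all transcripts. At a depth of 16041196 to 31760529 counts, the 12 members under the filter (at most 13 counts) were tested only with no filter.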
